A study of Mus musculus with 8 samples.

Results

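The genes described here encode the MADS-box transcription factors MEF2A, MEF2B, MEF2C, MEF2D and SRF, together with myocardin (Myocd), a coactivator of SRF. Each gene was taken from its annotated start to its annotated end with 50 kb added on either side, and every H3K56ac peak that touched this window was kept. The windows of the 6 genes held 46 of the 105600 peaks of the merged MuSC list, and the 6 genes were set against 21938 protein-coding genes. In H3K56ac, histone H3 carries an acetyl group on lysine 56. The mark was mapped by ChIP-seq in MuSCs, the Pax7-expressing muscle stem cells, which were freshly isolated from mice of C57BL/6 background. In Sirt6mKO mice a floxed Sirt6 gene, which encodes an H3K56 deacetylase, was deleted by a Cre expressed from the Pax7 locus (Pax7ICN). The deletion was thus limited to Pax7-expressing cells and their descendants. The study calls the Control cells wild type, and elsewhere describes the controls of Sirt6mKO mice as floxed mice without the Cre. The Cre line is described with a ROSA26-YFP reporter. After removal of Sca1, CD45 and CD31 positive cells, the study sorted cells positive for Integrin-a7 and CD34, for GFP (Pax7-ZsGreen mice) or for YFP. Its methods do not say which of these sorts gave the ChIP-seq cells of each genotype. The labels give 8 libraries, with 2 replicates each of H3K56ac and of input chromatin per genotype, and do not say whether a replicate is 1 mouse or a pool.

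The values below are positions and widths in 1 list that merges the peaks. The list has 0 columns of values per sample, and its score is 0 in every row. A peak may therefore come from Control cells, from Sirt6mKO cells or from both, the list does not give the number of reads behind a peak, and no difference between the genotypes could be computed. The cells were sorted in bulk, so a mark in a few cells and a mark on few alleles of all cells cannot be told apart.

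MEF2 factors bind an AT-rich element in the control regions of many muscle genes and are held inactive by class IIa histone deacetylases, which leave the nucleus when kinases phosphorylate them. SRF binds the CArG box and acts through 2 kinds of partner, the actin-regulated cofactors of the MRTF family and the MAP kinase-regulated ternary complex factors of the ELK family. Myocardin is the related coactivator of cardiac and smooth muscle, where it drives contractile genes through SRF. Mef2c and Mef2a have several annotated promoters, and different promoters of Mef2c are used in different tissues.

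The sequences that the peaks bear on most are shown first. They run from 250 bases before the transcription start site (TSS) given by RefSeq to 50 bases from it on, 5′ to 3′ on the strand of the gene, on GRCm38.p6, which is the same build as mm10. The table used here held 7 promoters for 5 of the 6 genes, all 7 identical to the genome, and none for Myocd. Capitals mark matches to any of 6 motifs searched on both strands, namely the CArG box, the MEF2 site, the E-box CAGCTG bound by myogenic basic helix-loop-helix factors, the AP-1 element TGANTCA, the TEAD element CATTCC and the GC box GGGCGG. The promoter of Srf (chr17:46556113-46556412, minus strand) is shown for its CArG boxes, and that of Mef2a (chr7:67372809-67373108, minus strand) for the MEF2 site at its start. The promoter of Mef2d (chr3:88142122-88142421, plus strand) lies in the widest peak of the set. The first promoter of Mef2c (chr13:83503784-83504083, plus strand) and one further into the gene (chr13:83573357-83573656, plus strand) are shown as a pair with and without a peak.
Srf: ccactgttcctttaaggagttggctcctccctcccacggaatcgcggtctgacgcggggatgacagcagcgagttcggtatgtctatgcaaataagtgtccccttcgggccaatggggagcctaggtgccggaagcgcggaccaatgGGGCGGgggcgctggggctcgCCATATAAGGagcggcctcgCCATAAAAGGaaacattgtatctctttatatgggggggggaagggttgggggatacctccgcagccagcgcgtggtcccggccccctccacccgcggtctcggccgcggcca
Mef2a: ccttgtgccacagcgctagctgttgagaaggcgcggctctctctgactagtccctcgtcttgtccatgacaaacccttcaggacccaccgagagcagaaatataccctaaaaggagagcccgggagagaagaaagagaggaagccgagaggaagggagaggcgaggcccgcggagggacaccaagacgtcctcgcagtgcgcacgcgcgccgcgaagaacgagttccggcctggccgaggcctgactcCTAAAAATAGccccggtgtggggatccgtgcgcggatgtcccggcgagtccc
Mef2d: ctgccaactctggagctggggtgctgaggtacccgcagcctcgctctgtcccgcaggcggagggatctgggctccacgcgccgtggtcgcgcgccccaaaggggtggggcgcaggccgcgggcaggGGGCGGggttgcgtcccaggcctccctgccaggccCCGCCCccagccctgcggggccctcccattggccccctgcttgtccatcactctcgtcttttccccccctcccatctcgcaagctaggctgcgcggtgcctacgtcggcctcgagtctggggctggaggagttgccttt
Mef2c first promoter: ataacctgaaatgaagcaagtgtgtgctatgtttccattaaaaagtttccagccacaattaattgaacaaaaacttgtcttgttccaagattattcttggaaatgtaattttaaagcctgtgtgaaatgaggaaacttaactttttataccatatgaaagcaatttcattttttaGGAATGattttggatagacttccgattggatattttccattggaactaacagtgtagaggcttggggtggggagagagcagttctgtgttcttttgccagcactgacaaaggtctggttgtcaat
Mef2c internal promoter: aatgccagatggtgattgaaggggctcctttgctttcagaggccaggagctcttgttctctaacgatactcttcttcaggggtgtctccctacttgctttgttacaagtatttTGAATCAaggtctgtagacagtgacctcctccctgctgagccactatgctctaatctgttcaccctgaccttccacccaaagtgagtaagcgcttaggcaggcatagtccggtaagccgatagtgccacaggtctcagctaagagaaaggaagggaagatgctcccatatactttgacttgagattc

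The Srf sequence held 2 CArG boxes, at -82 to -73 and -62 to -53 counted from the RefSeq TSS, with a GC box at -103 to -98. The Mef2a sequence held a MEF2 site that spans the start itself, from -2 to 7. In Mef2d both matches were GC boxes, at -124 and -89. The first promoter of Mef2c held 1 CATTCC match on the reverse strand, at -75, and the internal promoter held 1 TGANTCA match, at -137. The 300 bases of Srf, Mef2a and Mef2d were under peaks in full, those of the first Mef2c promoter over 239 bases, and the internal Mef2c promoter lay 48573 bp from the nearest peak.

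To determine which promoters of these genes carried H3K56ac, the TSSs of GENCODE vM21 were compared with the peaks. All 6 genes had a peak within 3 kb of a TSS (Wilson 95% confidence interval 60.97% to 100%, which covers counting error only). The share over all protein-coding genes was 67.8%, inside this interval. Of the 53 distinct TSS positions of the 6 genes, 25 were under a peak. This is 47.2% (34.4% to 60.3%), and the share over all TSS positions of protein-coding genes was 53.2%, inside this interval. TSS positions are not independent, because those of a gene lie close together and 34 of the 53 windows of 300 bp overlapped another window of the same gene. Grouping TSSs less than 1 kb apart into promoters left 25 promoters, 8 of which were under a peak. The promoter at the 5′ end was covered in 6 of 6 genes (66.6% for protein-coding genes with 2 or more promoters). Of the 19 later promoters 2 were covered, a share of 10.5% (2.94% to 31.4%), with 18.4% over all later promoters of protein-coding genes. These 2 were the second promoters of Mef2c and of Srf, and at Mef2a, Mef2b, Mef2d and Myocd the first promoter alone had a TSS under a peak.

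**Figure D1:**
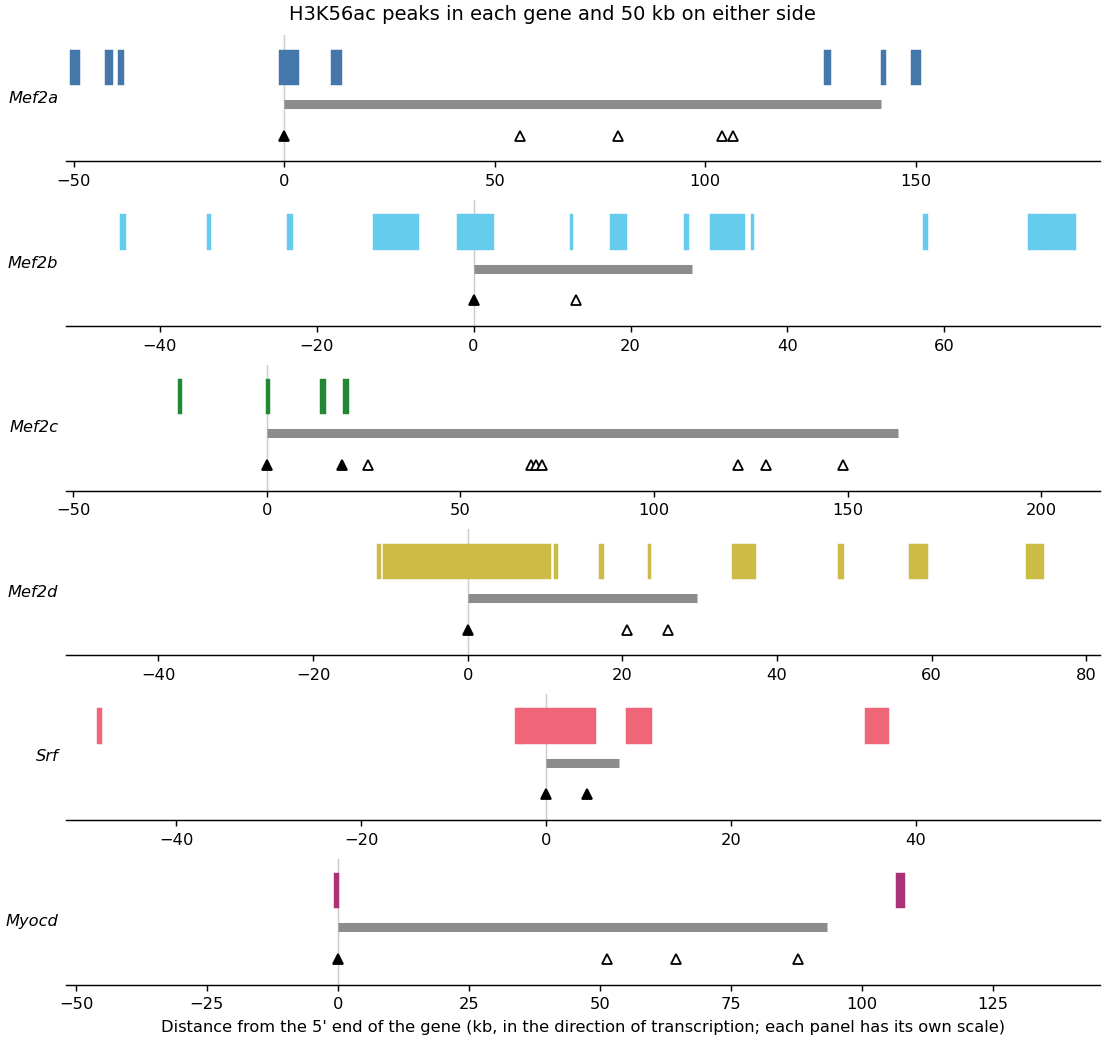
H3K56ac peaks (coloured blocks, drawn to scale) by distance in kb from the 5′ end of each gene, in the direction of transcription; the grey bar is the gene, filled triangles are promoters with a TSS under a peak and open triangles promoters without one. Peaks gather at the 5′ ends of Mef2d and Srf, and long stretches of Mef2a, Mef2c and Myocd hold none.

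By position, 12 of the 46 were at promoters of the gene itself, within 3 kb of one of its TSSs (26.1%, 15.6% to 40.3%), 5 elsewhere in its first intron and 3 over exons further in. Past the first intron, only the 236 bp peak of Mef2d at 23.3 kb touched no exon of any transcript of its gene. It counts among the 12 because Mef2d-207 starts 2313 bp away. The flanks held 9 peaks at promoters of neighbouring coding genes, 4 at promoters of neighbouring non-coding genes, 6 inside other genes and 7 between genes. The median width of the 46 peaks was 1341 bp, and that of the whole list 974 bp. Peaks wider than 3 kb numbered 7 of 46 (15.2%, 7.57% to 28.2%), near the 15.8% of the whole list. The width of the widest promoter peak ran from 790 bp at Myocd through 1257 bp at Mef2c, 2936 bp at Mef2b, 4735 bp at Mef2a and 8139 bp at Srf to 17348 bp at Mef2d. Over the 14872 protein-coding genes with such a peak the median was 3430 bp. Mef2d, Srf and Mef2a lay above it, and Mef2b, Mef2c and Myocd below. With intervals less than 1 kb apart joined in all genes, the peak of Mef2b became 4616 bp wide and stood at percentile 54.5, above the middle of the joined widths.

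**Figure D2:**
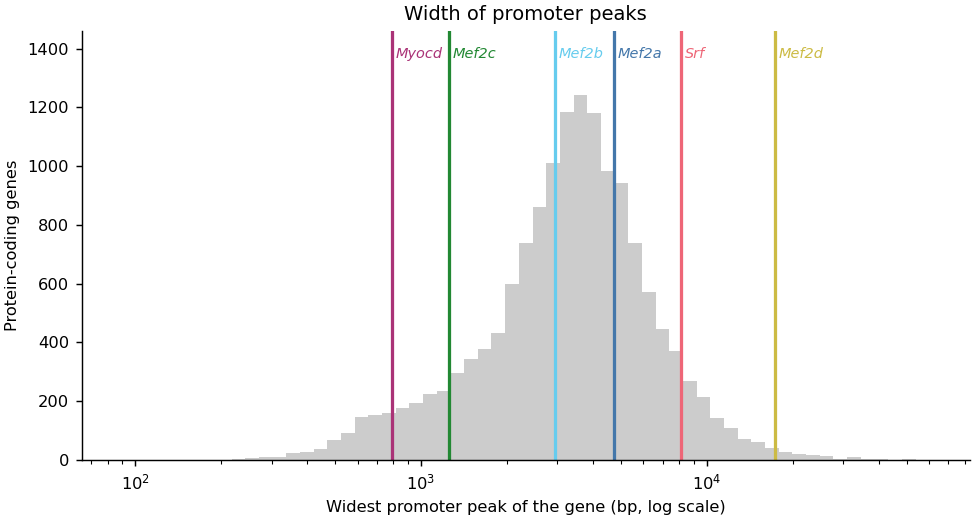
Width in bp, on a log scale, of the widest promoter peak of 14872 protein-coding genes (grey histogram) with the 6 genes as vertical lines. Myocd (790 bp) and Mef2c (1257 bp) lie in the narrow tail, Srf (8139 bp) and Mef2d (17348 bp) in the wide tail.

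Mef2d (ENSMUSG00000001419.17, chr3:88142372-88172086, plus strand) encodes a MEF2 factor expressed in many tissues, with a muscle-specific splice form made during myogenic differentiation. Its promoter peak at chr3:88135726-88153073 was 17348 bp wide and reached from -6646 to 10701 bp, counted from the 5′ end of the gene. Only 568 of 14872 genes (3.82%) had a promoter peak of 10 kb or more, and Mef2d stood at percentile 99.3 of these widths. The first 10 kb of the gene was covered in full, with a median of 19.2% over 2442 protein-coding genes within 20% of its length. Exon 1 and 82.8% of the 13.0 kb of intron 1 were under peaks. Further peaks of 381 and 4193 bp lay upstream and 1 of 368 bp downstream. In the direction of transcription, the gaps between neighbouring peaks were 294, 150 and 430 bp. The 4 together made a stretch of 23164 bp from -11664 to 11499 bp. Past it the marks were short, with a peak of 537 bp over exon 6 of 11 and one of 236 bp at 23.3 kb. The 4 TSS positions at the 5′ end were under the wide peak, and the later TSSs, of Mef2d-205 and Mef2d-207, which are not protein-coding, lay 2744 and 2313 bp from the nearest peak. Of the gene 39.9% was covered, against a median of 8.75% (quartiles 3.08% and 18.0%) for genes of similar length, and 203 of the 2442 were covered at least as far.

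The downstream flank of Mef2d held 5 peaks over 16.1% of its length. Of these, 4 lay at promoters of non-coding genes. A peak of 2926 bp contained a TSS of 1700113A16Rik, one of 1408 bp that of AW047730, and one of 2142 bp those of Mir9-1, Mir3093 and Gm25641, whereas the peak of 901 bp lay within 3 kb of that of AW047730. The peak of 679 bp lay between genes.

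Mef2a (ENSMUSG00000030557.17, chr7:67231163-67372858, minus strand), which encodes a MEF2 factor of skeletal and cardiac muscle, was covered over 4.85% of its 141.7 kb. The median over 873 protein-coding genes of similar length was 6.07% (quartiles 1.93% and 16.9%), so Mef2a was near the middle, at percentile 44.9. Its promoter peak at chr7:67369508-67374242 was 4735 bp wide, ran from -1384 to 3350 bp and contained both TSS positions at the 5′ end, which 7 of the 12 transcripts use. In intron 1, peaks of 1371 and 629 bp lay 11.2 to 13.4 kb from the TSS with a gap of 174 bp between them. Peaks covered 22.8% of this intron of 22.8 kb. No peak was found in the next 114.9 kb, in which the 5 TSS positions of the 4 later promoters lie, 21516 to 49003 bp from the nearest peak. At the far end, a peak of 1518 bp at 128.2 kb overlapped an exon of Mef2a-206, Mef2a-208 and Mef2a-210 and also the overlapping gene Lysmd4. A peak of 2158 bp held the starts of Lysmd4 and 1700112J16Rik. Upstream of Mef2a, 3 peaks of 1311, 1477 and 2267 bp lay between genes at -38.2 to -51.0 kb, and the last of them crossed the edge of the window.

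Mef2b (ENSMUSG00000079033.10, chr8:70139711-70167488, plus strand) is annotated with 2 promoters, and its covered promoter is not its own alone. The 5′ end is that of Mef2b-205, a transcript that starts with Borcs8, and the peak of 2936 bp there, from -426 to 2509 bp, held the start of Borcs8 as well. A peak of 1675 bp, only 5 bp away, held the start of the neighbour Rfxank. The other 4 transcripts, from Mef2b-201 to Mef2b-204, start 13.1 kb further in. Their TSS positions were 511 and 514 bp from a peak of 236 bp and were not covered. The 300 bases of the RefSeq promoter there (chr8:70152511-70152810) held 2 GC boxes, at -93 and -49, and no base under a peak. Inside the gene, peaks of 1998 bp in intron 1 of Mef2b-205 and of 514 bp over its exons 7 and 8 lay past this start. The gene was covered over 18.9% of its length, against a median of 8.91% for 2450 genes of similar length.

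The window of Mef2b held 15 peaks, the most of the 6 genes, with a median of 8 for genes of similar length. Of these, 6 lay at promoters of neighbouring coding genes, among them the 5309 bp at Nr2c2ap, the 4356 bp at Tmem161a and the 3678 and 2267 bp at Slc25a42. A further 4 peaks of 413 to 703 bp lay inside Ncan or Slc25a42. The flanks of Mef2b were covered over 19.05% upstream and 22.04% downstream.

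Mef2c (ENSMUSG00000005583.16, chr13:83504034-83667080, plus strand), needed for heart development and for fibre type and sarcomere genes in skeletal muscle, showed the sparsest marks of the MEF2 genes. Of its 163.0 kb 1.92% was covered, with a median of 5.72% (quartiles 1.69% and 17.2%) over 742 genes of similar length, and it stood at percentile 26.6. The annotation gives it 31 transcripts with 27 TSS positions, which fall into 9 promoters. At the first promoter a peak of 674 bp, from -189 to 484 bp, covered the 3 TSS positions of 6 transcripts. The second promoter, at 19.4 kb, has 11 TSS positions, and a peak of 1257 bp at chr13:83523778-83525034 contained 10 of them. The exception was Mef2c-207, 305 bp outside. The RefSeq TSS there also lay outside, by 122 bp, and its 300 bases (chr13:83523406-83523705) had no base under a peak. Between these promoters a peak of 1388 bp lay in intron 1, 13643 to 15030 bp from the 5′ end.

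The other 7 promoters of Mef2c, with 13 TSS positions, had no peak. The one of Mef2c-216 lay nearest, 5104 bp from the peak at the second promoter, and the cluster at 68.3 to 71.1 kb, which holds the internal promoter printed above, lay 47.3 to 50.6 kb away. From the end of the second promoter peak no peak was found for 204.6 kb, over the rest of the gene and all of its downstream flank, to chr13:83729626. Upstream, 1 peak of 733 bp lay between genes at -22.3 kb, and the next one was 1373 kb before the gene. All 4 peaks of the Mef2c window lay between -23.0 and 21.0 kb.

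Srf (ENSMUSG00000015605.6, chr17:46548329-46556175, minus strand) is the shortest of the 6 genes, with 7.85 kb. Its promoter peak at chr17:46550900-46559038 was 8139 bp wide, from -2863 to 5275 bp, and stood at percentile 92.98 of promoter peak widths. It overlapped exons 1 to 4 of the 7 exons of Srf-201 and all of intron 1, and it contained the start of Mir6976. Peaks covered 67.2% of the gene, while the median over 2122 genes of similar length was 12.2% (quartiles 0% and 30.2%), and 113 of them were covered at least as far as Srf. A peak of 526 bp lay 5 bp upstream, and the 2 together made 8670 bp. The TSSs of Srf-201, Srf-202 and Srf-204 were under the wide peak, and that of Srf-203, a retained-intron transcript, lay 800 bp outside. The covered second promoter of Srf, at 4.38 kb, is thus inside the same peak as the first. Downstream, a peak of 2691 bp lay within 3 kb of the start of Srf-203 and held a start of the neighbouring gene Cul9, and a peak of 2507 bp lay at another start of Cul9. The only other peak of the window, of 486 bp, was inside Ptk7 at -48.1 kb.

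Myocd (ENSMUSG00000020542.18, chr11:65176561-65269989, minus strand) carried the least. A single peak of 790 bp at chr11:65269902-65270691 lay almost wholly upstream, from -702 to 87 bp, and covered the TSS positions of Myocd-202 and Myocd-203. That of Myocd-205 lay 48 bp outside. In the 93.4 kb of the gene 88 bp or 0.0942% was covered, against a median of 7.17% over 1273 genes of similar length, and 1153 of these had a share as high or higher. Its promoter peak stood at percentile 4.61 of widths. The later promoters, at 51.4, 64.5 and 87.8 kb, were 18.7 to 51.3 kb from a peak. The next peak downstream, after 106.4 kb, was one of 1491 bp at the promoter of Arhgap44.

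**Figure D3:**
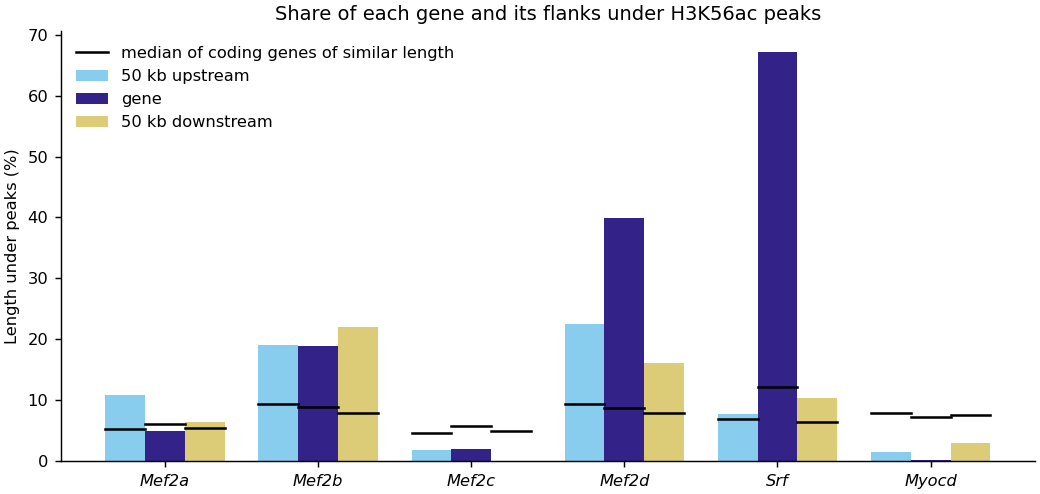
Share in percent of each gene (dark bars) and of the 50 kb upstream (light blue) and downstream (yellow) that lies under H3K56ac peaks; black lines are the medians over protein-coding genes within 20% of the length of the gene. The genes Srf (67.2%), Mef2d (39.9%) and Mef2b (18.9%) exceed their medians, and Mef2a (4.85%), Mef2c (1.92%) and Myocd (0.0942%) lie below.

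The 50 kb on either side was compared in the same way. Upstream, 22.4% of the 50 kb was covered at Mef2d, 19.05% at Mef2b and 10.8% at Mef2a, each above its median of 5.19% to 9.40%. At Mef2d all of this cover belongs to the stretch of 23164 bp at its promoter, which begins at -11664 bp. At Srf the flanks were covered over 7.75% and 10.4%, with medians of 6.87% and 6.40%. At Myocd the flanks were covered over 1.404% and 2.982%. The edges of the windows mattered for few peaks, since the peak nearest to an edge inside began 48.8 kb from Mef2a and the nearest ones outside lay 50.8 kb from Myocd, 50.85 kb from Srf and 51.5 kb from Mef2b.

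Next, the sequence at the starts was compared. The ratio of observed to expected CpG dinucleotides in the 300 bases at a TSS, which is high in CpG islands, had a median of 0.781 over the 25 TSS positions under a peak and of 0.331 over the 28 outside. Over all coding TSS positions the medians were 0.763 and 0.228. At the second promoter of Mef2c 7 of the 11 positions had a ratio above 0.9, with a highest of 1.19, and at the 5′ end of Mef2a both did, at 0.929 and 1.02. The peaks were not limited to such starts, since 6 covered positions had a ratio under 0.5. They were the 3 of the first Mef2c promoter, at 0.109 to 0.398, 1 of the second Mef2c promoter, at 0.348, and those of Srf-202 and Srf-204 inside the Srf gene, at 0.0900 and 0.121. The first Mef2c promoter printed above has a GC content of 35.7%, that of Mef2d 72.0%. Outside peaks, 2 positions had a ratio above 0.5, namely Myocd-205, at 0.590 and 48 bp from its peak, and the shared start of Mef2c-219 and Mef2c-225, at 1.06 and 50643 bp from a peak.

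**Figure D4:**
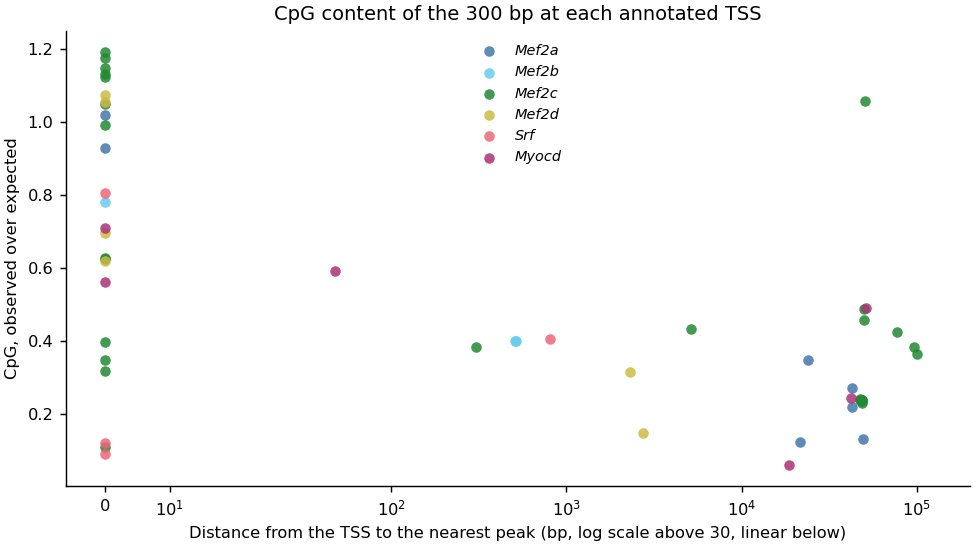
Ratio of observed to expected CpG in the 300 bp at each of the 53 TSS positions against the distance in bp from the TSS to the nearest peak (linear to 30 bp, log scale above), with 1 colour per gene. Positions at distance 0 are under a peak and reach 1.19 at Mef2c, and positions beyond 1 kb lie below 0.5 except 1 of Mef2c at 1.06.

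To see whether the elements that these factors bind lay at their own genes, the motifs were counted. Of the 53 TSS windows 1 held a CArG box, that of Srf-201, with 1.37% over the windows of all coding TSS positions. A MEF2 site was found in 4 windows, or 7.55%, with 2.71% over all. The 4 belong to Mef2a, 2 at its 5′ end and 2 at its uncovered second promoter, and neighbouring windows share bases. The other motifs were found in 6 windows for CAGCTG (16.4% over all), 8 for TGANTCA (6.69%), 7 for CATTCC (13.2%) and 13 for GGGCGG (38.5%). These counts include shared matches too. The windows of all 4 TSS positions at the internal Mef2c promoter printed above hold the same TGANTCA match. In the 500 bases at the middle of each of the 46 peaks a CArG box was found in none (2.31% over all peaks), and 0 of 46 windows allows a share of up to 6.52%, taking 3 counts of the total as the limit. MEF2 sites were found in 3 (7.15%), CAGCTG in 10 (26.1%), TGANTCA in 3 (14.4%) and CATTCC in 11 (24.9%). GGGCGG was found in 12, or 26.1%, with 12.3% over all peaks. These 2 shares are not matched for position, because the windows were drawn around genes. Of the 46 peaks, 12 lay at promoters of the gene, 9 at those of coding and 4 at those of non-coding neighbours. Whether this accounts for the GGGCGG share was not tested. In the TSS windows GGGCGG was found in 24.5%, below the 38.5% over all.

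Over the whole length of the 46 peaks there were 16 MEF2 sites and 4 CArG boxes. This is 0.170 and 0.0425 matches per kb, with 0.166 and 0.0522 over all peaks, so both elements were about as dense as in the list as a whole. GGGCGG had 0.818 matches per kb, against 0.441 over all peaks, again without matching for position. TGANTCA, which was in 3 of the 46 central windows, had 0.287 matches per kb over whole peaks, against 0.318. The MEF2 sites lay in 12 peaks, 5 of them at Mef2a, 2 each at Mef2b, Mef2c and Mef2d and 1 at Srf, and none at Myocd. Of the 4 CArG boxes 3 lay in the wide Srf peak, 2 of them the boxes of the promoter, whose starts are 20 bases apart. A selection of matches in peaks at Srf, Mef2d and Mef2c, away from the promoters printed above, is shown with 15 bases on either side, on the strand of the gene and with the match in capitals. The first is the third CArG box of the Srf peak, 2813 bp into the gene at chr17:46553353-46553362. The next 3 lie in the wide Mef2d peak, at chr3:88140793-88140802 before the gene and at chr3:88150199-88150208 and chr3:88150222-88150231 in intron 1, where the starts are 23 bases apart. The last 2 lie in Mef2c, at chr13:83518937-83518946 in the intronic peak and at chr13:83524034-83524043 in the peak of the second promoter.
Srf CArG box at 2813: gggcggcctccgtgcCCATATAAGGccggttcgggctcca
Mef2d MEF2 site at -1579: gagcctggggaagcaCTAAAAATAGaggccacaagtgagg
Mef2d MEF2 site at 7827: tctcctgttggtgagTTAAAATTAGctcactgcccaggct
Mef2d MEF2 site at 7850: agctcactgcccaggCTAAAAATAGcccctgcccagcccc
Mef2c MEF2 site at 14903: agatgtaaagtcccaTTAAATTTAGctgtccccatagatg
Mef2c MEF2 site at 20000: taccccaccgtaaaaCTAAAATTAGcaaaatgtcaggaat

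The CArG box inside Srf has the same 10 letters as the upstream one of its promoter. The Mef2d sites at -1579 and 7850 have the same 10 letters as the site at the start of Mef2a, and these 3 were the only such matches in the 46 peaks. A match is a run of letters and was not tested for binding.

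Finally, genes that act with these factors were examined, from lists chosen for their known roles. The lists were chosen with earlier results of these data known, so their counts and covers are descriptions and not a test. All 5 SRF coactivators (Mrtfa, Mrtfb, Elk1, Elk3 and Elk4) had a promoter peak, with the widest at Elk4, a ternary complex factor, with 7301 bp, and the highest cover at Elk3, with 31.3% of the gene. Of the class IIa deacetylases 3 of 4 had one. That of Hdac4 was 23475 bp wide, at percentile 99.7, and Hdac5 was covered over 54.2%, whereas Hdac9 had none and was covered over 0.284%. All 4 kinases that act on MEF2 or on its deacetylases had a promoter peak, and Mapk14, which encodes the p38 alpha kinase, had both the widest, with 11489 bp, and the highest cover, with 37.1%.

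Of 13 SRF target genes 13 had a promoter peak. Fos, an immediate early gene with a serum response element, lay in a peak of 10198 bp that covered it in full. Of 10 MEF2 target genes 8 had one. Jun, covered in full by a peak of 7145 bp, had the widest, and the muscle genes Smpx and Lmod3, whose products belong to the contractile apparatus, had none. Over the 36 genes 33 had a promoter peak (91.7%, with 67.8% over all protein-coding genes as above), and the median cover of the gene was 23.7%, against 7.82% over all. These covers were not matched for gene length, and the lists hold short genes, such as Fos with 3384 bp. By list, the median width of the widest promoter peak was 2924 bp for the coactivators, 9543 bp for the deacetylases, 5263.5 bp for the kinases, 5145 bp for the SRF targets and 1904 bp for the MEF2 targets.

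The cell type of the list was checked on markers. By the study's own reanalysis of sorted cells, the sort was not fully pure, so other cells may be among those profiled. All 8 MuSC markers had a promoter peak, with a median cover of the gene of 70.0%. Over all protein-coding genes 67.8% had one, and the median cover was 7.82%, again without matching for gene length. A promoter peak was also found at 5 of 6 smooth muscle and pericyte markers, 3 of 4 endothelial, 2 of 3 fibro-adipogenic and 5 of 5 mature myofibre markers, with median covers of 16.0%, 13.2%, 11.2% and 9.67%. The endothelial and fibro-adipogenic counts lay near the share over all protein-coding genes. None of the 3 cardiomyocyte markers (Myh6, Nppa and Tnnt2) had one, and the median cover was 0%. Among the smooth muscle and pericyte markers, Notch3 and Des had promoter peaks of 22371 and 9745 bp, and Cnn1, Myh11 and Pdgfrb of 1075, 2081 and 2271 bp. Rgs5 had none but was covered over 31.4%, and Myh11 was covered over 1.75%. The endothelial markers ranged from Cdh5, which had neither a promoter peak nor any covered base, through Kdr, covered over 1.41%, to Tek and Pecam1, covered over 25.04% and 27.5%. Among genes of blood cells, Ptprc and Cd3e had no covered base, and Cd68 had a promoter peak of 2636 bp and was covered over 31.9%. Of the fibro-adipogenic markers, Ly6a had no covered base, and Pdgfra and Dcn were covered over 11.2% and 22.2%. Whether marks of other cells have a part in the peak of Myocd was not tested.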

How the data were processed

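MuSCs sorted as described at the start were profiled by H3K56ac ChIP-seq on the Ion Torrent Proton. The study's methods describe alignment to mm10 and peak calling with MACS2, and the submitters' processing notes name FastQC, Bowtie, SAMtools and deepTools without versions. The authors deposited 1 merged list of intervals, whose score column is 0 in every row (0 rows with another value). The study describes merging overlapping peaks into reference sets before its comparison of binding, but which libraries entered the deposited list is not stated. No column holds a value per sample (0 columns), and merging widens and fuses intervals. The paper reports much broader H3K56ac peaks after inactivation of Sirt6, and whether this bears on the widths given here was not tested.

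Groups came from the labels. Positions were counted from 1 and compared by at least 1 bp of overlap with GENCODE vM21 and GRCm38.p6 (Python 3.11.15, pandas 2.3.3, pyfaidx 0.9.0.4, samtools 1.23.1), and promoter sequences are from RefSeq. Chromosome names were matched, and the functions were tested on simulated data. A promoter is within 3 kb of a TSS, and peaks under 1 kb apart were joined only where stated. Percentiles give the share of the compared genes with a lower value. The transcript used for exon numbers and introns is the one with the most exons among those at the 5′ end. A peak was classed as over an exon by the exons of any transcript of the gene. Genes of similar length are within 20%. Wilson intervals at 95% cover counting error only, and peaks, TSSs and genes are not replicates, so no test was made.

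The CArG box has 6 A or T between CC and GG, and the MEF2 site is the 10-base element with 4 A or T in its middle, C or T first and A or G last. Named were the 6 genes, in each list the gene with the widest promoter peak, that with the highest cover and those without a promoter peak, neighbours with a promoter in a window, and the 3 genes with the most similar cover profile. The markers given one by one were named after their values were seen. Library depths stated by the study were not used, because the list cannot be split by library. The count over 1 marker list is not reported here. The members and lists were chosen with earlier results of these data known. Alternatives were flanks of 10 and 100 kb, promoters of 1 kb, protein-coding transcripts, intervals of at least 500 bp, joined intervals, midpoints and 3 kb added to genes.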

Additional observations from a re-analysis of the deposited data

How the results depend on the processing

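Of 55 alternative values for 22 results, 40 equalled the main value or stayed within its counting interval or within 1.5 times its count, and 15 moved. All 6 genes kept a promoter peak with promoters of 1 kb, with protein-coding transcripts and with intervals of at least 500 bp. The 46 peaks became 28 with flanks of 10 kb and 96 with flanks of 100 kb. With 3 kb added on either side of the gene the cover was 6.31% for Mef2a, 23.9% for Mef2b, 1.96% for Mef2c, 41.6% for Mef2d, 76.0% for Srf and 0.795% for Myocd. Peaks upstream of the start are then counted, and at Mef2a, Mef2b and Srf also peaks past the far end of the gene. Joining intervals less than 1 kb apart gave covers of 4.97% for Mef2a and 41.3% for Mef2d, by adding the gaps. The widest promoter peaks became 4616 bp for Mef2b, 23164 bp for Mef2d and 8670 bp for Srf, by fusing neighbouring peaks across the gaps. Among joined peaks Mef2d stood at percentile 96.9, Srf at 82.2, Mef2a at 55.8 and Mef2b at 54.5. Intervals of at least 500 bp gave 18.1% for Mef2b and 37.8% for Mef2d, by leaving out short peaks.

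The comparison of Sirt6mKO with Control, the fit with a replicate block and leaving out each replicate were not run. No paired analysis was possible because single libraries cannot be separated in the list. The list gives no read counts, so the absence of a peak does not show the absence of the mark, and a wide interval cannot be told from the union of narrower ones.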

Other observations

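Cover along the gene and its flanks, in 20 bins, was compared with that of protein-coding genes within 50% of the length of each gene. Mef2d was closest to Capza2, Wee1 and Fam234a, with mean absolute differences of 7.13, 8.13 and 8.86 percentage points, and these were covered over 36.3%, 36.9% and 37.1%. Srf was closest to Rgs2, Clec14a and Mex3b (3.57, 4.57 and 4.78 points). Mef2a was closest to Usp34, Ttbk2 and Yeats2 (2.08 to 2.88 points), and Mef2b to Pla2g15, Phc1 and Poglut1 (9.37 to 9.66 points). For Mef2c the closest were Zpbp, Usp13 and Prrg1 (0.807 to 0.894 points). For Myocd they were Vmn1r68, Ccdc3 and Zfp934 (0.608 to 0.714 points), which had no promoter peak. Small differences are reached easily among sparsely covered genes, so the 6 sets of values are not comparable with each other.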
